A study of Mus musculus with 4 samples.

Results

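Classical monocytes, the blood-derived Ly6c2- and Ccr2-expressing monocytes, were examined in droplet RNA libraries of hepatic nonparenchymal cells. They were chosen by measured values: a barcode with at least 200 genes and at most 20% mitochondrial UMIs (unique molecular identifiers, 1 per captured transcript) was a member if it held at least 4 UMIs of F13a1, Ccr2, Ly6c2 and Chil3 together and at least 1 of Csf1r. It could hold at most 2 UMIs of C1qa, C1qb and C1qc, 9 of Camp, Ngp and Ltf, 2 of Prtn3, Mpo, Elane and Ctsg, 0 of Treml4, 1 of Cd209a and Flt3, and 1 of Cd3d, Cd3e, Cd79a and Ms4a1. The rule found 1002 members among 24561 kept barcodes (4.08%).

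The 4 libraries came from wild-type C57B6 mice, 18 to 20 weeks old, with 1 mouse in each group. The control mouse had normal saline. The TAA mouse had intraperitoneal thioacetamide, a liver toxin used to produce fibrosis, over 12 weeks. Celecoxib was given by gavage on top of thioacetamide, from week 5, at 7.5 mg/kg in the TAA+C7.5 mouse and at 30 mg/kg in the TAA+C30 mouse. Celecoxib is an inhibitor of cyclooxygenase-2, the product of Ptgs2. Because a group is 1 mouse, no difference had a replicate check and no test was made. Every comparison below is between 2 libraries, and every interval covers counting error only. Intervals of gene levels and gene ratios treat each UMI as a separate draw, so they leave out variation between cells. Sets of 4 values always begin with control and TAA, and the lower celecoxib dose precedes the higher.

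Classical monocytes leave the bone marrow through the chemokine receptor CCR2 and enter injured tissue, where they can become macrophages, dendritic-like cells or patrolling monocytes. In the fibrotic liver they are known as a source of inflammatory cytokines and of macrophages that border scar tissue. Type I and II interferons switch on antiviral and antigen-presentation genes in them, and MHC class II molecules, made under the control of CIITA, appear as monocytes take on antigen-presenting functions.

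The libraries held 60, 209, 155 and 578 members with 515240, 2078937, 749990 and 3682768 UMIs in all. Median depth per member was 8838.5, 10165, 4523 and 6382.5 UMIs, so the members of the TAA+C7.5 library were the shallowest, and the control values rest on the fewest cells. No barcode of a member occurred in another library's members. The summed UMIs of members were scaled to counts per 1000000 (CPM), and a ratio on the log2 scale had 10 CPM added to both sides. Such ratios understate differences of low genes.

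The label was checked against its markers. In CPM, F13a1, the A subunit of coagulation factor XIII, was at 860, 297, 395 and 487. Ccr2 was at 1623, 1263, 1068 and 1205, and Ly6c2, a Ly6 surface antigen, at 852, 1786, 768 and 1019. Chil3, a secreted chitinase-like protein, was at 534, 1219, 1773 and 1323. These 4 genes chose the members, so their levels are a description. The markers that the rule did not use were also present. Fibronectin, Fn1, was at 1987, 745, 1123 and 1038 CPM, and the proteoglycan Vcan at 155, 96.2, 160 and 162. In T cells of the same libraries, taken as a measure of free RNA, Fn1 was at 0.516, 3.37, 4.64 and 6.18 CPM. At least 3 of the 6 markers had a UMI in 85%, 77.0%, 83.9% and 89.8% of members. Because 4 of the 6 are the rule's own genes, this share partly follows from the rule. Of the markers outside the rule, Fn1 had a UMI in 81.7%, 66.5%, 72.3% and 81.8% of members. Vcan had one in 45%, 34.9%, 29.7% and 41.0%. The label was kept on these markers outside the rule, with Fn1, Vcan and F13a1 all lowest in the TAA library.

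Other genes that the rule did not use were high in members of every library. Among 1211 genes with at least 100 CPM in members of all 4 libraries, the lowest ratio of members to all other barcodes was largest for Fn1, at 5.42. Gm9733 followed at 4.89 and F10, coagulation factor X, at 4.40. The lysozyme gene Lyz2 had a lowest ratio of 3.79 and Plac8 3.66. Others among the leading genes were the chemokine gene Ccl9, Sirpb1c, Clec4a3, Mcub, Tppp3, Eps8, Clec4a1, Gpr141, Emilin2, S100a4, Ms4a4c, Thbs1, Ms4a6c, Ms4a6d, Nfil3, Gda, Ccl2 and Tgfbi. Several are surface receptors of myeloid cells (the Clec4a, Sirpb1 and Ms4a genes) and Thbs1 and Tgfbi encode matrix proteins. The ranking is against all other barcodes, and some of these genes were higher in related cells. Clec4a3 was at 614, 331, 545 and 389 CPM in patrolling monocytes, against 444, 264, 345 and 313 in members. Clec4a1 was also higher there in every library, and Gda was higher in neutrophils except in TAA+C30. Fn1 and Lyz2 were higher in members than in patrolling monocytes, C1q macrophages and neutrophils of every library.

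Patrolling monocytes, the blood monocytes that crawl along vessel walls, served as the nearest comparison (88, 107, 84 and 86 barcodes with Csf1r, at least 2 UMIs of Treml4, Ace, Spn and Cd300e together and at most 3 of the members' 4 marker genes). They had Fn1 at 26.1, 25.1, 95 and 119 CPM, far below the members. Of the 42-gene interferon list, members held 20 of 23, 26 of 36, 21 of 27 and 14 of 29 measured genes at least 2-fold above patrolling monocytes. The median log2 ratio was 1.51, 1.58, 1.54 and 0.84, against -0.03, -0.07, -0.07 and -0.04 over all measured genes, of which 7.11%, 5.83%, 7.33% and 4.22% were at least 2-fold higher. Against C1q macrophages, 0 of 39, 0 of 32 and 0 of 34 interferon genes were 2-fold higher in members of the 3 thioacetamide libraries (medians 0.13, 0.10 and -0.19), where 3.58%, 6.31% and 4.6% of all genes were. All these classes were cut by rules on UMI sums, so this is a description of them.

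Some members carried genes of other cells. At least 20 UMIs of the neutrophil granule genes S100a8 and S100a9 were found in 0, 11, 2 and 28 members. They held 97.5%, 71.1% and 88.6% of all S100a8 and S100a9 UMIs of members in the 3 thioacetamide libraries. S100a8 was at 27.2, 1665, 159 and 1534 CPM with them and at 27.2, 49.0, 75.3 and 185 CPM without them. No difference in S100a8 or S100a9 is therefore read as one of all members. T cell markers summed to 0 to 36.0 CPM, B cell markers to 11.7 to 18.7 CPM and Kupffer cell markers to 2.17 to 7.76 CPM. Endothelial markers summed to 476, 210, 17.3 and 17.1 CPM, hepatocyte markers to 462, 363, 297 and 303 CPM, and erythroid markers to 377, 17.3, 22.7 and 25.8 CPM. All 3 were highest in the control library, and their part in any result was not tested.

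The rule also has edges. In the order of the libraries, 1, 13, 2 and 18 barcodes failed only for a sum of 3 marker UMIs, while 1, 7, 8 and 19 members had exactly 4. In the TAA library Lyz2 was at 1481 CPM in the former and 3034 CPM in the latter, both far below the 13720 CPM of all TAA members. Some conditions alone kept out more. The need for at least 1 Csf1r UMI alone kept out 68, 153, 222 and 285 barcodes, and its part in the shares was not tested. The limit on C1q, the first complement component that macrophages make, removed more than any other condition in TAA. It alone kept out 7, 342, 46 and 203 barcodes, or 10.4%, 62.1%, 22.9% and 26.0% of those meeting every other condition. Of these, 6, 317, 41 and 169 had 10 or more C1q UMIs, while 0 of 368, 749, 1434 and 1003 T cells were over the limit. The barcodes over the limit had little F13a1 (41.2, 46.0, 23.4 and 97.7 CPM), but Ccr2 at 577, 970, 1028 and 1033 CPM and Ly6c2 at 564, 625, 479 and 428 CPM. Their Apoe was high, at 9114, 30642, 31958 and 28408 CPM. They are left out below except where named.

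Classical monocytes made up 1.04% (95% interval 0.792 to 1.33, Clopper-Pearson), 3.21% (2.79 to 3.67), 2.55% (2.17 to 2.98) and 9.36% (8.64 to 10.1) of kept barcodes. The TAA share was 3.1 times the control share (2.31 to 4.20). TAA+C30 stood 2.92 times above TAA (2.48 to 3.43) and 3.67 times above TAA+C7.5 (3.07 to 4.41). TAA+C7.5 stood at 0.794 of TAA (0.641 to 0.982), but the interval of this ratio included 1 under several alternatives. With the rule on barcodes thinned to 1500 UMIs the ratio was 0.822 (0.612 to 1.098). Among barcodes with at least 1000 UMIs it was 0.855 (0.689 to 1.058). Other alternatives kept the interval below 1, such as a marker sum of at least 6 (0.757, 0.605 to 0.945). Shares depend on how cells leave the tissue and pass the low-speed spin, and on the other cells: endothelial barcodes numbered 2471, 244, 74 and 18.

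The other denominators changed the picture in part. Of leukocytes, classical monocytes were 2.37%, 3.62%, 2.87% and 9.92%, and the TAA share was 1.53 times the control share (1.14 to 2.07). Of mononuclear phagocytes (barcodes with Csf1r and without T or B cell genes), they were 8.65%, 11.6%, 24.3% and 33.1%. Here TAA+C7.5 was 2.09 times above TAA (1.69 to 2.59), the opposite direction to the share of kept barcodes. The TAA library had 546 barcodes of C1q macrophages, against 20, 126 and 345 in the others. The higher share in TAA+C30 than in the other libraries held over all 3 denominators. Without the limit on C1q the TAA share was 7.31 times the control share (5.66 to 9.57), TAA+C7.5 was at 0.391 of TAA (0.331 to 0.460) and TAA+C30 at 1.49 times TAA (1.34 to 1.67).

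**Figure D1:**
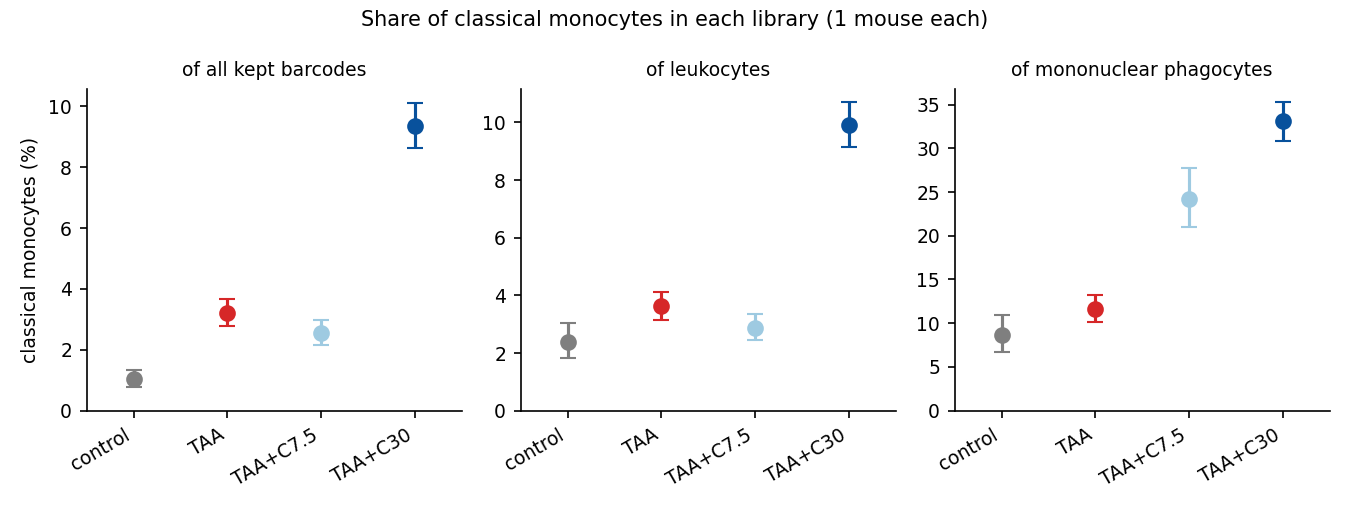
Share of classical monocytes in each library (y axis, percent; 1 mouse each) of kept barcodes, leukocytes and mononuclear phagocytes, with exact 95% binomial intervals. TAA+C30 is highest in every panel, at 9.36%, 9.92% and 33.1%, while TAA+C7.5 lies below TAA in the first 2 panels and above it in the third.

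The first comparison was of TAA with control. At 1.5-fold, 23 of 36 interferon-response and 6 of 12 MHC class II genes were higher in TAA and 0 lower. Ly6a, a surface antigen gene, was also higher, as were 8 of 21 inflammatory and 9 of 20 macrophage-differentiation genes. Lower were 7 of 13 glucocorticoid-response, 7 of 17 patrolling-monocyte and 9 of 22 immediate early genes. Of 4511 genes measured (a mean of at least 30 CPM in both libraries and 20 UMIs together), 272 differed at least 2-fold (6.03%), 138 higher in TAA (3.06%) and 134 lower (2.97%). At 1.5-fold, 7.78% were higher and 14% lower. The median over all genes was -0.11, and scaling by trimmed means moved it to -0.00, with 171 of 259 genes higher (66.0%) in place of 50.7%.

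The interferon-response list, fixed for its antiviral and signalling genes, was the list furthest above all genes. Of 36 measured genes, 23 were at least 1.5-fold higher in TAA and 0 lower, and the median log2 ratio was 0.92. Isg15, a ubiquitin-like modifier, was at 97.0, 374, 157 and 184 CPM, or 3.86-fold higher in TAA than in control (2.90 to 5.24). Irf7, the transcription factor that amplifies type I interferon responses, was at 159, 464, 267 and 187 CPM (2.91-fold, 2.32 to 3.70). TAA was the highest library for both, and its intervals did not meet those of the others. In T cells Isg15 was at 69.6, 121, 82.8 and 103 CPM and Irf7 at 38.7, 61.9, 38.2 and 48.3 CPM, also highest in TAA but by smaller folds. TAA was also the highest library for the antiviral genes, while the order of the other 3 varied. Rsad2 was at 69.9, 204, 89.3 and 90.7 CPM, and Ifit2, which binds viral RNA, at 23.3, 94.3, 24.0 and 39.9 CPM. Gbp2, a guanylate-binding protein, was at 69.9, 165, 80.0 and 61.1 CPM. Irf1 (log2 ratio -0.08), Irf9 (0.09) and Slfn5 (0.08) differed little.

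The interferon-stimulated response element, bound by interferon-activated transcription factors, is known to drive such genes, so the 250 bases before the start sites were searched for GAAANNGAAA on either strand, counting overlapping matches. RefSeq promoters of GRCm38.p6 were found for 34 of the 42 listed genes, of which 20 (58.8%) held the motif. It occurred in 936 of 27025 genes with a promoter in the table (3.46%) and in 1 of 12 MHC class II genes. Counted by promoter, the shares were 20 of 41 (48.8%) and 978 of 32851 (2.98%). The 4 sequences shown belong to genes at least 1.5-fold higher in TAA than in control and at least 1.5-fold lower in TAA+C30 than in TAA. Capitals mark the motif, which reads TTTCNNTTTC on the other strand. Isg15 (chr4:156200819-156201068, minus strand) holds 3 overlapping matches, the first beginning 78 bases before the start. Rsad2 (chr12:26456453-26456702, minus strand) holds 1, Ifit3 (chr19:34583279-34583528, plus strand) 2 and Gbp2 (chr3:142620413-142620662, plus strand) 1.
Isg15: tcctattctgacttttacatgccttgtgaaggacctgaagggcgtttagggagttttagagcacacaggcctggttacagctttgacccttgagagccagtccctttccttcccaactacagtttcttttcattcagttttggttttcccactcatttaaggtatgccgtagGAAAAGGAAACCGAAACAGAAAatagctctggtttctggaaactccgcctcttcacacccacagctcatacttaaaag
Rsad2: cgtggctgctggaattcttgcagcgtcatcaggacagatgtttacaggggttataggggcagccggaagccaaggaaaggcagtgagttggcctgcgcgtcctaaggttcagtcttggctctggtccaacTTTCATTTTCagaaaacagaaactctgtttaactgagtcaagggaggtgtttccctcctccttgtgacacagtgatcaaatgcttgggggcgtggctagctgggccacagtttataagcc
Ifit3: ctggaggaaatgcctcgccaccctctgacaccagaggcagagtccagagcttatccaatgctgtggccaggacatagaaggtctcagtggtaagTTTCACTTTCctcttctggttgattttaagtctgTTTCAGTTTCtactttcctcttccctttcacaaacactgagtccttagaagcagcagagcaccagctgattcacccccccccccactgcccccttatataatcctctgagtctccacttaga
Gbp2: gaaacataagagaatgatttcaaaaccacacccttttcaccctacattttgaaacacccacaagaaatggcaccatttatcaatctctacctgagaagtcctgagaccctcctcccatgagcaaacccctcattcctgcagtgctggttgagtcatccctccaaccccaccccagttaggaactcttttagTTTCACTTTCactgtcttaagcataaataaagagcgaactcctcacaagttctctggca
Measured interferon genes with a match (18) had a median log2 ratio of 0.83 and those without (12) of 1.14 in TAA against control, with ranges of 0.08 to 1.84 and -0.08 to 1.98. The ranges overlapped almost wholly, so a match in this window did not separate higher from lower ratios.

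The classical MHC class II genes encode the molecules that show peptides to CD4 T cells. H2-Aa was at 1112, 3014, 1140 and 943 CPM, H2-Ab1 at 902, 2765, 1068 and 860, and H2-Eb1 at 747, 2531, 885 and 708. The invariant chain gene Cd74 was at 2995, 7050, 3131 and 2558 CPM. TAA was highest for all 4 genes, and the other 3 libraries lay close together. The folds of TAA over control were 2.71 (2.49 to 2.96), 3.06 (2.79 to 3.38), 3.39 (3.05 to 3.77) and 2.35 (2.23 to 2.48). H2-DMb1, part of the peptide-loading complex, was 2.27-fold higher (1.79 to 2.93). Ciita, the master regulator, was at 46.6, 70.7, 22.7 and 32.3 CPM, and its TAA to control interval included 1 (0.982 to 2.44). In all, 6 of 12 measured genes were at least 1.5-fold higher and 0 lower, with a median of 0.73. In T cells H2-Aa was at 22.2, 155, 39.2 and 131 CPM, a pattern that did not follow the members in TAA+C30.

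Ly6a (Sca-1, a surface antigen that interferons raise; chr15:74994877-74998031, minus strand, GRCm38) led the higher genes. It was at 19.4, 421, 90.7 and 74.4 CPM, with a UMI in 8.33%, 42.6%, 12.3% and 15.7% of members, and was 21.7-fold higher in TAA than in control (11.7 to 45.4). Cd72, an inhibitory C-type lectin better known from B cells, had 0, 145, 9 and 35 UMIs. The exact lower limit of its TAA to control ratio was 9.62, and the ratio to a floor of 3 counts in control was 11.98. In CPM it was at 0, 69.7, 12.0 and 9.50, with 19.9 to 31.5 CPM in T cells, so that TAA alone was above the T cell level. The next genes were Tent5c, Basp1, C3ar1 (the receptor of complement C3a), Grasp, F11r (a junctional adhesion molecule), Gfod1, Traf1 (an adaptor of TNF receptors) and Rgs1, a regulator of G protein signalling, with log2 ratios of 2.36 to 2.14. C3ar1 rested on 3 control UMIs, with a ratio of 10.9 (3.65 to 53.6), and Tent5c on 2.

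Among inflammatory genes 8 of 21 were at least 1.5-fold higher and 2 lower (median 0.50). Il1b, the gene of interleukin-1 beta, was at 1535, 2873, 1969 and 2317 CPM, 1.87-fold higher in TAA (1.74 to 2.02). Nfkbia, the NF-kB inhibitor that NF-kB itself induces, was at 573, 1344, 1148 and 1426 CPM (2.35-fold, 2.08 to 2.66). Tnf was at 11.6, 77.0, 70.7 and 95.6 CPM, the control value from 6 UMIs. Nfkbia and Tnf stayed within 1.5-fold of TAA in the celecoxib libraries. Against TAA, Nfkbia was at 0.854 in TAA+C7.5 (0.790 to 0.922) and 1.06 in TAA+C30 (1.01 to 1.11), and Tnf at 0.918 (0.660 to 1.26) and 1.24 (1.03 to 1.51). Ccl3, a macrophage inflammatory chemokine, went the other way, at 406, 128, 233 and 234 CPM (0.317 of control, 0.263 to 0.381). Ccl2, the ligand of CCR2, was at 148, 135, 159 and 184 CPM and differed little.

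Of 20 measured macrophage-differentiation genes, 9 were at least 1.5-fold higher in TAA and 2 lower (median 0.24). Apoe, the lipoprotein that macrophages secrete, was at 1999, 4818, 3347 and 3827 CPM (2.41-fold, 2.26 to 2.57). Aif1 was at 107, 321, 208 and 192 CPM, and Fcgr1, the high-affinity IgG receptor, at 107, 286, 175 and 219 CPM. Ms4a7 was at 7.76, 63.5, 6.67 and 11.9 CPM (8.18-fold, 3.12 to 30.5, from 4 control UMIs). All 4 peaked in TAA. Of the scar-associated macrophage genes, the lipid receptor gene Trem2 was at 44.6, 131, 104 and 161 CPM and Spp1, osteopontin, at 25.2, 77.9, 36.0 and 70.6 CPM. Gpnmb was low, at 5.82, 27.4, 21.3 and 50.8 CPM. C1q macrophages of the TAA library had Ms4a7 at 613 CPM, and T cells had it at 0, 0.963, 0.258 and 1.12 CPM.

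The genes lowest in TAA against control were Lyz1, Ccl24, Cox6a2, Siglech, Xpo7, Thbd, Ccl3, Hpgd, Ccdc88c and Deptor, with log2 ratios of -2.66 to -1.45. All 57 Siglech and all 33 Cox6a2 UMIs of control came from 2 members with plasmacytoid dendritic cell genes, and without members with dendritic cell genes the log2 ratios were 0.44 and 0.14. Ccl24 (a chemokine) was at 0.34 among members with few MHC class II transcripts, and Rgs1 at -0.07. Thbd, thrombomodulin, was at 237, 70.7, 107 and 103 CPM. Lyz1 and Lyz2, Ly6c2 and its neighbour Ly6c1, and Hspa1a and Hspa1b are near-identical copies whose reads the counting may have split, so their levels are uncertain. The patrolling-monocyte list had 1 of 17 genes higher and 7 lower (median -0.49), with Nr4a1, the transcription factor that patrolling monocytes need, at 1040, 524, 739 and 729 CPM. Of 13 glucocorticoid-response genes 3 were higher and 7 lower (median -0.59), Tsc22d3 (GILZ) among the latter at 202, 85.1, 220 and 161 CPM. The dissociation and immediate early list had 2 of 22 higher and 9 lower (median -0.37), with Fos at 3179, 1320, 1201 and 1787 CPM. Nuclear genes of oxidative phosphorylation were within 1.5-fold for 28 of 29 (median 0.17).

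**Figure D2:**
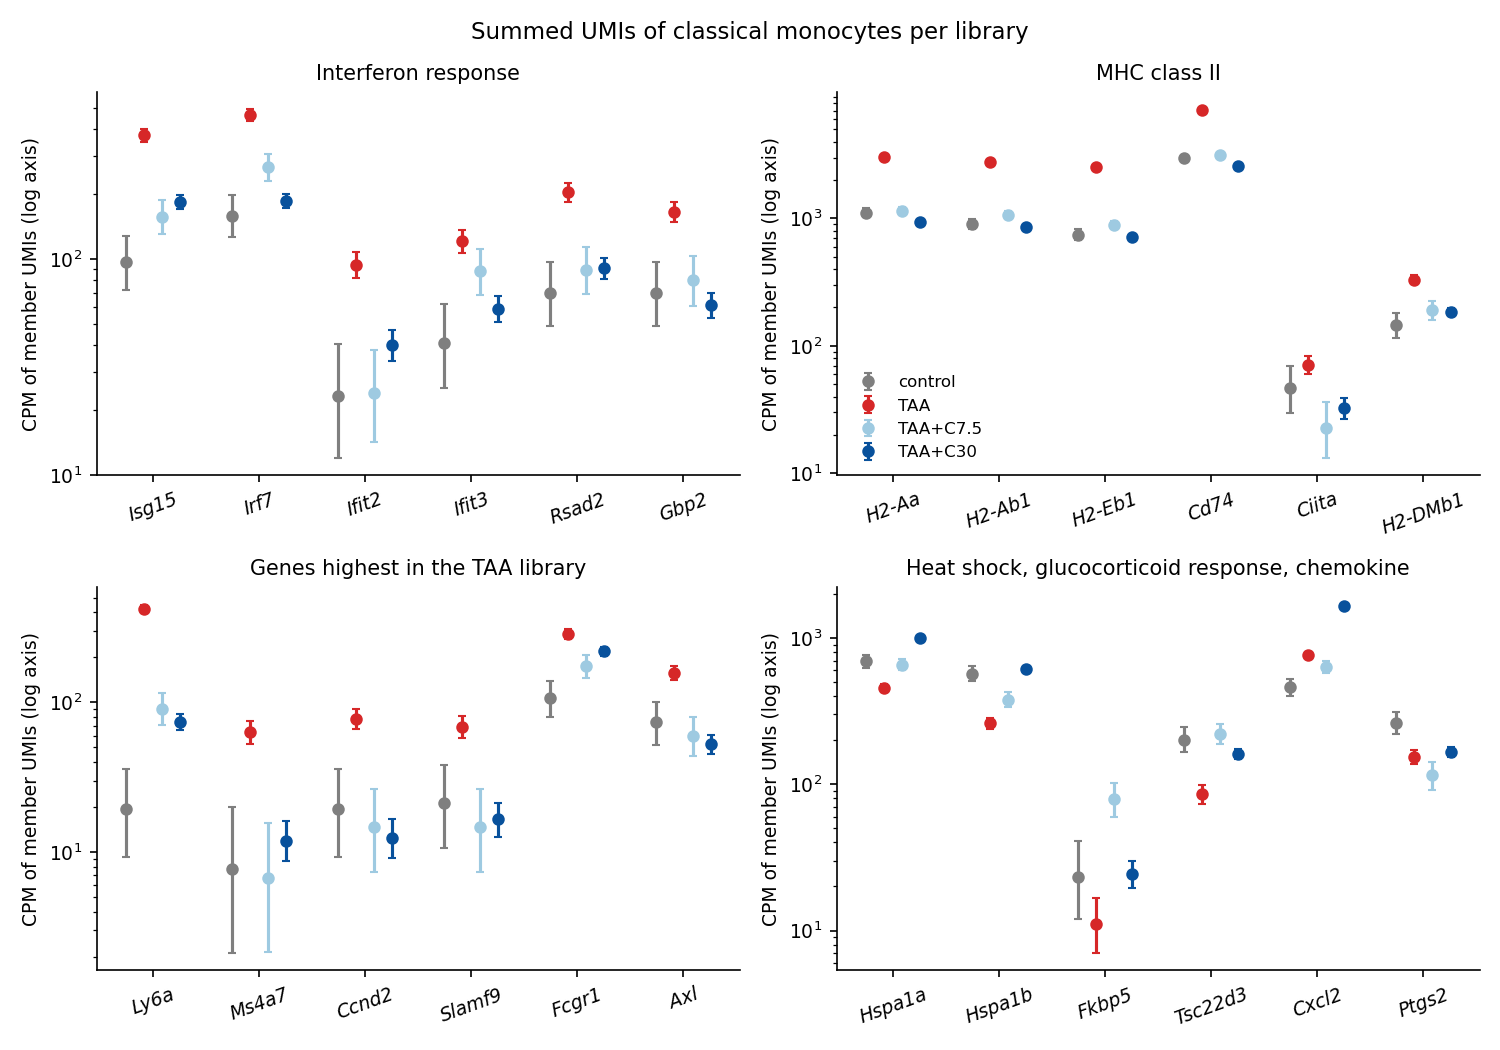
Levels of 24 genes in the summed UMIs of classical monocytes of each library (y axis, CPM on a log scale) with exact 95% Poisson intervals. TAA, in red, is highest for every interferon and MHC class II gene shown. The panel from Ly6a to Axl holds genes picked for being highest in TAA. Fkbp5 is highest in TAA+C7.5 at 78.7 CPM, and Cxcl2 is highest in TAA+C30 at 1645 CPM.

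Both celecoxib libraries were then compared with TAA. These comparisons share the TAA library, and with TAA against control as well, so an unusual TAA mouse would enter all 3. In both, Ly6a and some of the interferon and MHC class II genes, among them Isg15, Irf7, H2-Aa and Cd74, were lower than in TAA, and 0 genes of either list were at least 1.5-fold higher. Fewer genes passed 2-fold than between TAA and control: 72 of 4372 for TAA+C7.5 (1.65%), with 17 higher (0.389%) and 55 lower (1.26%), and 51 of 4284 for TAA+C30 (1.19%), with 15 higher (0.35%) and 36 lower (0.84%). At 1.5-fold, 8.74% of genes differed in TAA+C7.5 (4.23% higher, 4.51% lower) and 4.55% in TAA+C30 (1.4% higher, 3.15% lower). The counts carry unlike counting noise, since members held 515240 UMIs in control, 749990 in TAA+C7.5 and 3682768 in TAA+C30. The part of that noise in the counts was not tested.

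Of the interferon list, 0 of 36 genes were at least 1.5-fold higher and 13 lower in TAA+C7.5 (median -0.48). In TAA+C30 the figures were 0 and 15 of 35 (median -0.49). The medians of all genes were 0.07 and 0.00. Isg15 was 2.38-fold lower in TAA+C7.5 (1.96 to 2.91) and 2.03-fold lower in TAA+C30 (1.83 to 2.26). Irf7 was 1.74-fold lower (1.49 to 2.04) and 2.48-fold lower (2.25 to 2.74). Rsad2 was 2.28-fold (1.76 to 3.0) and 2.25-fold lower (1.94 to 2.60). Xaf1, Irgm1 and Oas1a, all over 2-fold higher in TAA than in control, differed less, with log2 ratios of -0.04, -0.09 and -0.12 in TAA+C7.5 and -0.40, -0.44 and -0.17 in TAA+C30.

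Of the MHC class II list, 6 of 12 genes were at least 1.5-fold lower in TAA+C7.5 (median -0.64) and 8 of 11 in TAA+C30 (median -0.81), with 0 higher in either. H2-Eb1 was 2.86-fold lower (2.64 to 3.1) in TAA+C7.5 and 3.57-fold lower (3.41 to 3.75) in TAA+C30, and Cd74 2.25-fold (2.16 to 2.35) and 2.76-fold lower (2.69 to 2.83). Ciita was 3.12-fold (1.88 to 5.50) and 2.19-fold lower (1.71 to 2.81). The costimulatory gene Cd86 had log2 ratios of -0.51 and -0.70. The lysosomal protease gene Ctss differed less (-0.21 and -0.25).

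Ly6a was 4.64-fold lower in TAA+C7.5 (3.62 to 6.03) and 5.66-fold lower in TAA+C30 (4.93 to 6.50). Cd72 was 5.81-fold (2.98 to 13) and 7.34-fold lower (5.04 to 10.9), and Ms4a7 9.52-fold (3.98 to 29.8) and 5.31-fold lower (3.75 to 7.66). Ccnd2 (cyclin D2), Slamf9 and Pmepa1 were also among the 10 lowest genes of both, at 77.4, 68.8 and 58.2 CPM in TAA and at most 16.6 CPM in either celecoxib library. The remaining lowest genes were Ifit2, Rgs1, Gpr183 and H2-Eb1 in TAA+C7.5, and H2-Eb1, H2-Ab1, H2-Aa and Bcl2a1b in TAA+C30. Axl, a receptor for dying cells, was 2.62-fold (1.92 to 3.66) and 3.0-fold lower (2.5 to 3.60).

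The genes higher than in TAA differed between the doses. In TAA+C7.5 Fkbp5, a chaperone that glucocorticoids induce, led at 23.3, 11.1, 78.7 and 24.2 CPM, 7.11-fold above TAA (4.33 to 12.1). Tsc22d3 was 2.58-fold higher (2.08 to 3.21), yet over 13 glucocorticoid-response genes the median was 0.04, with 3 higher and 1 lower. Fkbp5 was also higher in TAA+C7.5 than in TAA outside these monocytes: 82.6 against 19.2 CPM in patrolling monocytes, 64.9 against 16.9 in C1q macrophages, 48.8 against 25.5 in T cells and 43.2 against 15.1 in neutrophils. The other leading genes were Ear2, Rgcc, Sirpb1a, Rnaset2a, Gstp1, Hpgd, Edem2 and Cd14. Ear2, an eosinophil-type ribonuclease of patrolling monocytes, was at 50.5, 33.2, 124 and 33.1 CPM. Cd14, the lipopolysaccharide co-receptor, was at 1122, 693, 1365 and 1027 CPM.

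In TAA+C30 the genes most above TAA were heat shock genes and Cxcl2, a neutrophil chemokine. Hspa1b was at 569, 260, 377 and 614 CPM (2.36-fold above TAA, 2.15 to 2.60) and Hspa1a at 693, 454, 657 and 996 (2.19-fold, 2.04 to 2.36). Control also had more of both than TAA, and Hspa1a in T cells was at 492, 146, 509 and 764 CPM, also lowest in TAA. Heat shock and immediate early genes respond to tissue dissociation, whose part was not tested. Cxcl2 was at 458, 763, 633 and 1645 CPM (2.16-fold, 2.04 to 2.28), and in T cells at 120, 137, 84.4 and 264 CPM, also highest in TAA+C30. The others were Hsph1, Mmp8 (a neutrophil-type collagenase), Emp1, Rgcc, Saa3, Cebpa and Hmox1. Hmox1, heme oxygenase-1, was at 95.1, 79.4, 76.0 and 162 CPM. Inflammatory genes as a list had a median of -0.23 in TAA+C7.5 against TAA, below the 0.07 of all genes. In TAA+C30 against TAA it was 0.11, beside -0.003 over all genes.

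**Figure D3:**
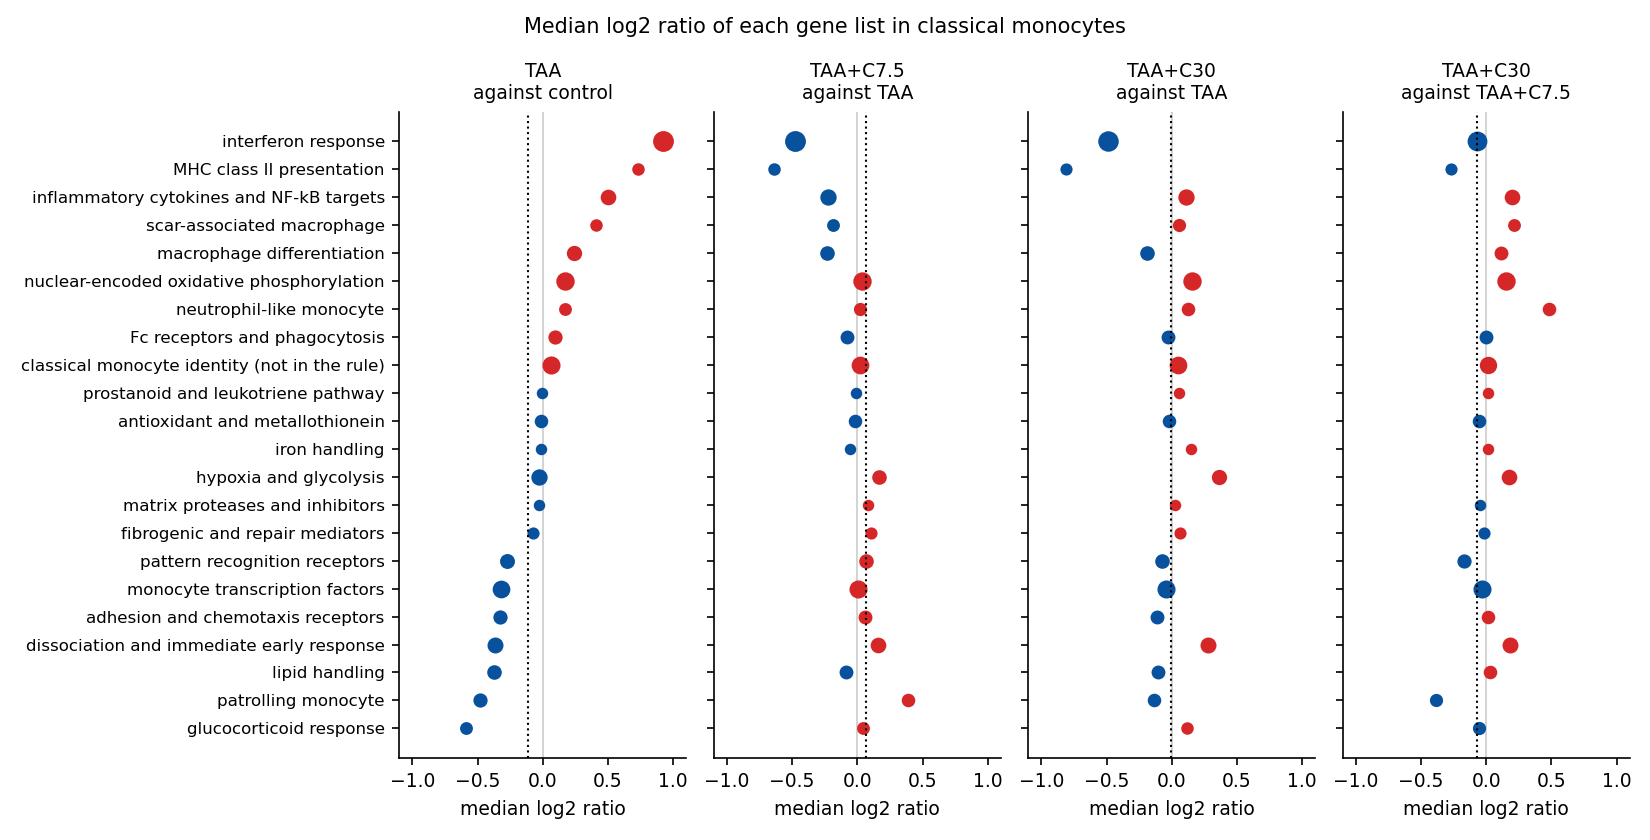
Median log2 ratio of each gene list (x axis) in the 4 comparisons of classical monocytes, with larger points for lists with more measured genes, red above and blue below 0, and a dotted line at the median of all measured genes. The interferon list lies at 0.92 in TAA against control and at -0.48 and -0.49 in the celecoxib libraries against TAA, and near the dotted line between the doses.

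The doses themselves differed by the fewest genes, 27 of 4316 at 2-fold (0.626%), with 16 higher in TAA+C30 (0.371%) and 11 lower (0.255%). At 1.5-fold 4.22% differed, 2.04% higher and 2.18% lower. The interferon list had 0 of 33 genes past 1.5-fold either way (median -0.07, as over all genes). Of 11 MHC class II genes 1 was lower and 0 higher (median -0.27). Saa3, an acute-phase serum amyloid, was 3.48-fold higher in TAA+C30 (2.31 to 5.49), though only 6.45% and 11.6% of members held a UMI. Cxcl2 was 2.60-fold higher (2.36 to 2.86), and Egr1, Hk2 (hexokinase 2), Hmox1, Gpr183, Rgs1, Ube2c, Snhg8 and F11r completed the leading 10. Ear2 was 3.74-fold lower (2.83 to 4.94) and Fkbp5 3.26-fold lower (2.30 to 4.57), followed by Tppp3, Adgre4, Wdfy1, Nr4a2, Trpm2, Bcl2a1b, Sirpb1a and Selenow. Of 14 patrolling-monocyte genes 4 were lower and 0 higher (median -0.38), and of 15 neutrophil-like genes 7 were higher and 2 lower. The median of the second list was 0.48, and 0.26 without the members with at least 20 S100a8 and S100a9 UMIs.

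Because celecoxib acts on the prostanoid pathway, its genes were followed singly. Ptgs2 was at 264, 154, 115 and 166 CPM and Ptgs1, the constitutive cyclooxygenase, at 33.0, 16.8, 17.3 and 12.5 CPM. Ptgs2 was highest in control, and TAA and TAA+C30 did not differ beyond counting error (ratio 1.08, 0.943 to 1.24). Hpgd, which inactivates prostaglandin E2, was at 151, 45.2, 108 and 73.3 CPM. Alox5ap, needed for leukotriene synthesis, was at 1112, 1109, 1472 and 1479 CPM, and the prostaglandin receptor Ptger4 at 75.7, 65.4, 68.0 and 64.1 CPM. Of 9 measured genes, 2 were higher and 2 lower in TAA against control, and the list medians were -0.00, -0.01, 0.06 and 0.01.

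MHC class II genes were among the most variable between members. Each member was thinned at random to 1500 UMIs, which left out 0, 1, 2 and 6 shallower members. Over 883 genes the variance over the mean had a median of 1.12, and the 15 most variable genes included Cd74, H2-Eb1, H2-Aa and H2-Ab1, with Gm42418, Apoe, Malat1, Lyz2, Hspa1a, Hspa1b, Ccl4, Cxcl2, Fth1, Il1b and Actb. Members with at least 5 UMIs of H2-Aa, H2-Ab1, H2-Eb1 and Cd74 together were 21.7% (12.1 to 34.2), 45.2% (38.3 to 52.2), 24.2% (17.6 to 31.8) and 24.1% (20.7 to 27.8), and without thinning 35%, 60.3%, 31% and 36.3%. T cells passed in at most 0.538%. At least 3 UMIs of 7 interferon genes were found in 11.7% (4.82 to 22.6), 30.8% (24.6 to 37.5), 17.6% (12.0 to 24.6) and 13.8% (11.1 to 16.9), and without thinning in 40%, 78.5%, 42.6% and 46.0%. T cells passed that in 1.62% to 4.17%. TAA was the highest library on both counts. In TAA, 33 members passed both, 61 MHC class II alone, 31 interferon alone and 83 neither.

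**Figure D4:**
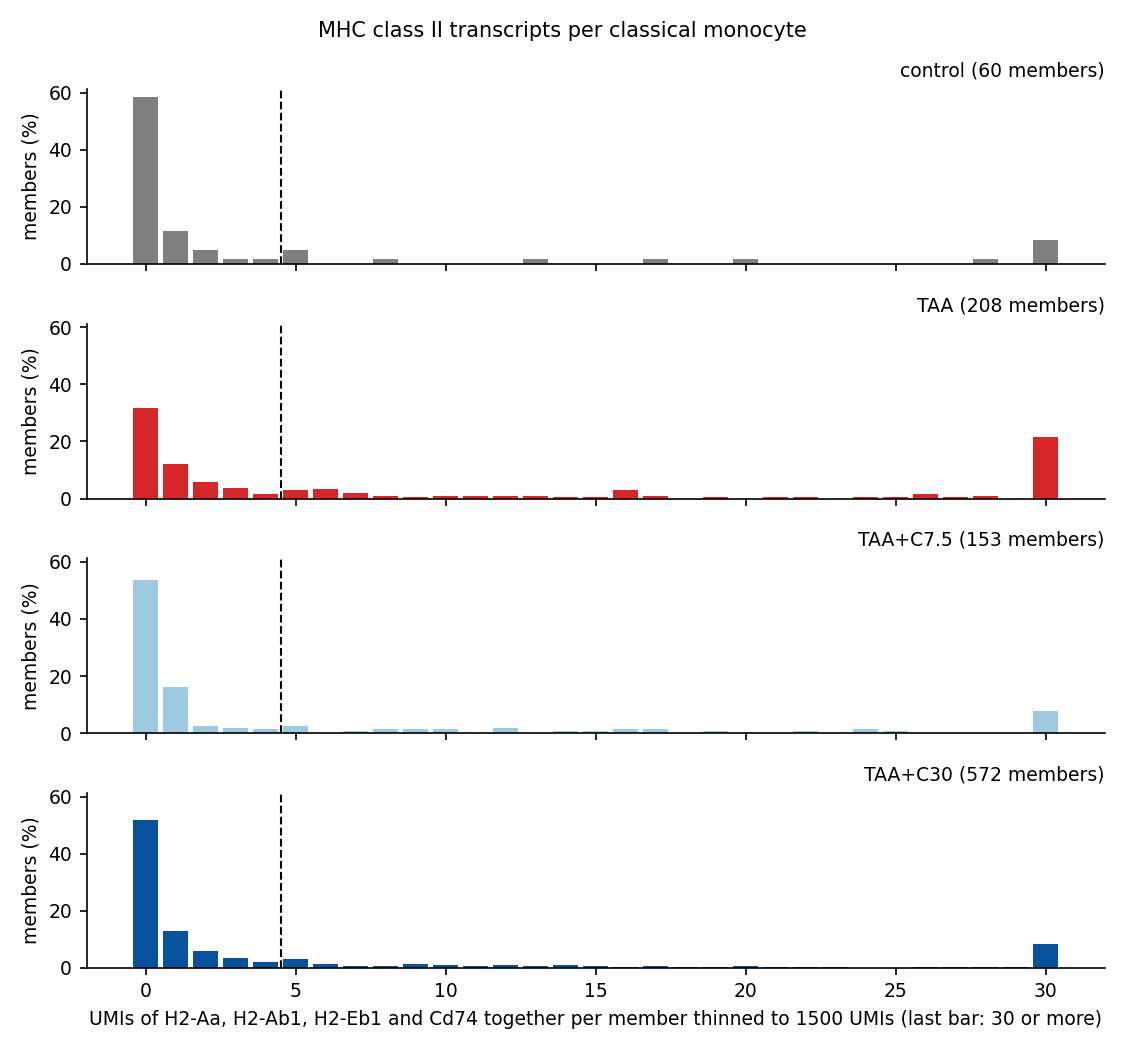
UMIs of H2-Aa, H2-Ab1, H2-Eb1 and Cd74 together per member thinned to 1500 UMIs (x axis; the last bar holds 30 or more) against the percent of members in each library (y axis). The dashed line is the limit of 5 UMIs, which 45.2% of TAA members and 21.7% to 24.2% of the others reach.

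The 2 sides of the limit, a division made after its values were seen, held 13 and 47, 94 and 114, 37 and 116, and 138 and 434 members (at or above, then below). A limit on a per-cell sum marks a range and not a cell type. Of 3409 genes measured on both sides in every library, 10 were at least 2-fold higher above the limit in all 4. Besides the 4 that set it they included H2-DMa, H2-DMb1, Cxcl16, Itgax, Axl and Cd83, genes of antigen-presenting cells. Another 15 were at least 2-fold lower in all 4. They included Vcan, Chil3, Hp, F13a1, Mgst1, Fn1, Mmp8, Pygl, Cd177, Hopx, Gsr, Pi16, Thbs1 and I830127L07Rik. Chil3 and F13a1 are among the 4 genes that chose the members, so their levels here are a description. Fn1 was at 542, 261, 431 and 453 CPM above the limit and 2417, 1162, 1357 and 1236 below it. Vcan was at 33.9, 25.9, 35.9 and 35.7 above and 191, 157, 202 and 204 below. Ccr2, which the rule also used, differed less between the sides, at 1110, 1322, 1005 and 1190 above and 1775, 1211, 1081 and 1209 below.

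The difference between libraries was then read within each side. Ly6a was at 59.3, 763, 303 and 228 CPM above the limit and 7.55, 125, 16.3 and 22.9 below it, so it was highest in TAA on both sides. Isg15 was at 169, 397, 231 and 247 above and 75.5, 355, 132 and 164 below. Below the limit, 23 of 35 interferon genes were at least 1.5-fold higher in TAA than in control and 0 lower (median 0.91), where 8.47% of all genes were higher and 14.3% lower. Against TAA, 16 of 36 genes were lower in TAA+C7.5 (median -0.49) and 12 of 35 in TAA+C30 (median -0.47), where 5.44% and 2.72% of all genes were lower. The genes higher than in TAA were 5.37% and 1.99% of all there, and 0 of the list. At or above the limit, 27 of 35 interferon genes were higher and 2 lower in TAA than in control (median 1.18), with 13.9% and 23.3% of all genes. Against TAA, 9 of 35 were lower and 2 higher in TAA+C7.5 (all genes 8.96% and 12.8%), and 14 of 35 lower and 0 higher in TAA+C30 (all genes 5.08% and 3.81%). The interferon medians of members with few MHC class II transcripts were thus close to those of all members. The MHC class II list shrank there, to medians of 0.16, -0.25 and -0.25, since the limit itself uses its genes. At or above the limit its medians were 0.53, -0.47 and -0.66. Inflammatory genes differed by side, with a median of 0.76 in TAA against control below the limit and -0.14 above it, where control has 13 members. Their medians in TAA+C7.5 against TAA were -0.42 below the limit and 0.01 above it, and in TAA+C30 against TAA 0.13 and 0.06.

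**Figure D5:**
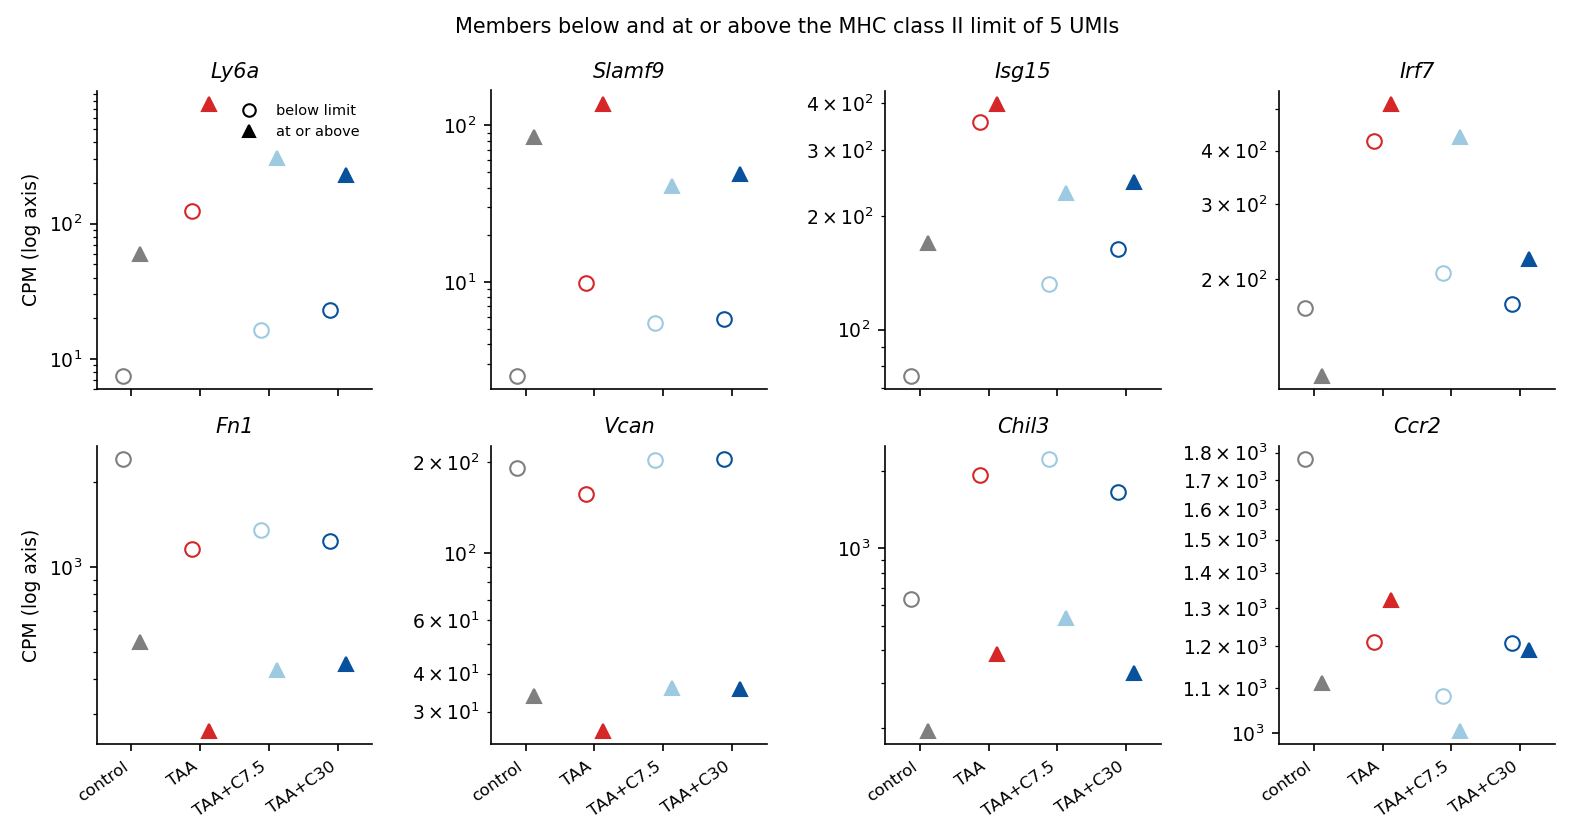
CPM (y axis, log scale) of 8 genes in members below (open circles) and at or above (triangles) the MHC class II limit in each library. Ly6a reaches 763 CPM above the limit in TAA and 125 below it, Isg15 is highest in TAA on both sides, and Fn1 and Vcan are lower above the limit in every library.

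Other myeloid cells of the same livers gave the following medians for the interferon list. Patrolling monocytes had 1.14 in TAA against control, -0.84 in TAA+C7.5 against TAA and -0.04 in TAA+C30 against TAA. Neutrophils had 1.26, -0.74 and -1.16. C1q macrophages, too few in control, had -0.34 and -0.16 against TAA. For MHC class II, C1q macrophages had -0.02 and -0.10, and patrolling monocytes -0.26 and 0.28, where the members had -0.64 and -0.81. Neutrophils, with 6 and 7 measured genes, had -1.17 and -0.65, and dendritic cells with Cd209a or Flt3 had -0.34 and -0.48. In TAA against control the MHC class II medians were 0.99 in patrolling monocytes and 1.46 in neutrophils, where the members had 0.73. Lower MHC class II in both celecoxib libraries was thus also seen in neutrophils and dendritic cells. C1q macrophages differed little from TAA, and patrolling monocytes were lower in TAA+C7.5 but not in TAA+C30. Ly6a was at 19.0, 170, 49.6 and 72.9 CPM in patrolling monocytes, and at 894, 501 and 541 in C1q macrophages of the thioacetamide libraries. The differences between cell classes were not tested.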

How the data were processed

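Single-cell libraries of hepatic nonparenchymal cells from 4 mice were used. The deposited files hold UMI counts per gene and barcode. They were made with Cell Ranger 3.1.0 on mm10, per the submitters' processing notes. All 55450 gene IDs were found in GENCODE M21, and 108 symbols occur more than once. The authors' cell annotation and doublet treatment are not given in the sources used here.

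Barcodes with at least 200 genes and at most 20% mitochondrial UMIs were kept (5788, 6512, 6083 and 6178 from control to the higher celecoxib dose). Scrublet, run in Scanpy 1.11.5, marked 122, 52, 172 and 116 of them as doublets, 1, 2, 2 and 13 of them members. These were kept, and leaving them out was an alternative. Members' counts were summed per library and scaled to CPM. Ratios have exact conditional binomial intervals, levels exact Poisson and shares Clopper-Pearson intervals, all at 95%. Those of gene ratios and levels treat each UMI as a separate draw. A gene was measured at a mean of at least 30 CPM and 20 UMIs over both libraries, and called at 2-fold (1.5-fold for lists) after adding 10 CPM. Cells are not replicates, and no test was made with 1 mouse per group.

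The text names the 10 highest and 10 lowest measured genes of each comparison, leaving out genes at under 10% of their level in another cell class of the library where they were higher, and examples from 23 lists. Genes beyond these were chosen after their values were seen. The members and lists were chosen with earlier results of these data known. Scripts were tested on simulated data. TMM scaling in edgeR 4.0.16 (R 4.3.3) was an alternative. Other steps used Python 3.11.15, numpy 2.4.6, scipy 1.17.1 and pandas 2.3.3. Some genes are not reported here.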

Additional observations from a re-analysis of the deposited data

How the results depend on the processing

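No paired analysis was possible because the labels give no replicate numbers and each group is 1 mouse. With 1 library per group no spread between mice is known, and the 60 control members limit every comparison with control. Alternatives on the C1q limit, the MHC class II limit and members with genes of other cells were chosen after seeing the data.

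The TAA to control ratio of shares was 3.1 of kept barcodes, 1.53 of leukocytes, 1.34 of mononuclear phagocytes and 7.31 without the C1q limit. TAA+C7.5 to TAA was 0.794, 2.09 of mononuclear phagocytes and 0.391 without the C1q limit. Its interval included 1 without Scrublet doublets, with the rule on thinned barcodes, with a C1q sum of 0 and at 1000 UMIs or more. It also did so without members with at least 20 S100a8 and S100a9 UMIs, and without members with dendritic cell genes. It stayed below 1 with a mitochondrial limit of 10%, a marker sum of at least 6 or without Chil3, and of leukocytes. TAA+C30 to TAA was 2.92, and 1.49 without the C1q limit. TAA+C30 to TAA+C7.5 was 3.67, and 1.36 of mononuclear phagocytes. No alternative dropped the condition on Csf1r, so its part in these ratios was not tested.

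Counts of genes at 2-fold moved with the filters. For TAA against control (272) they were 424 without the C1q limit, 616 at or above the MHC class II limit, 74 with 50 CPM added, 494 with no filter but 1 UMI, 86 with a filter of 100 CPM and 50 UMIs, and 984 at 1.5-fold. For TAA+C7.5 against TAA (72) the same settings gave 119, 203, 27, 174, 30 and 382, and 1 CPM added gave 109. For TAA+C30 against TAA (51) they gave 99 without the C1q limit, 24 with 50 CPM added, 105 with no filter, 24 with the stricter filter and 195 at 1.5-fold. For TAA+C30 against TAA+C7.5 (27) they gave 162 at or above the MHC class II limit, 11 with 50 CPM added, 55 with no filter, 8 with the stricter filter, 182 at 1.5-fold, 44 with 1 CPM added and 42 with the rule on thinned barcodes.

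The interferon median ranged over 17 alternatives from 0.68 to 1.28 for TAA against control, from -0.53 to -0.31 for TAA+C7.5 and from -0.53 to -0.37 for TAA+C30 against TAA. The MHC class II median ranged from 0.16 to 1.22, -0.90 to -0.25 and -1.0 to -0.25. No list median past 1.5-fold changed sign. These genes did change sign in TAA against control: Rgs1 (-0.074) and Ccl24 (0.34) below the MHC class II limit, Thbd above it (0.34), Cox6a2 with the rule on thinned barcodes (0.52) and without members with dendritic cell genes (0.14), and Siglech with these 2 settings (1.53 and 0.44) and below the limit (0.62). Saa3 was at -0.14 above the limit in TAA+C30 against TAA+C7.5. The causes were not tested.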
